A study of Mus musculus with 8 samples.

Results

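Genes that mark the stages of neutrophil granule formation and the mature neutrophil were examined in the inflamed colon of Trim58 knockout and wild type mice. The group holds 10 genes of the 22180 tested. They are the early granule genes Mpo, Elane, Prtn3 and Ctsg, the later granule genes Ltf, Camp and Ngp, and the mature-cell genes Cd177, Ly6g and Stfa2l1. They were chosen by name, as probe sets annotated with exactly 1 gene symbol, and each of the 10 genes had a single such probe set. The names were chosen with earlier results of these data known, so counts among the 10 are a description. They were compared between 4 Trim58-/- (KO) mice and 4 Trim58+/+ (WT) mice. All 8 were females of 9 weeks from the line C57BL/6-Trim58tm2313Arte, and the knockouts lack Trim58, a gene for a tripartite motif ubiquitin ligase, completely, per the series' design text. All 8 drank 4% dextran sodium sulfate (DSS), which damages the lining of the colon, for 7 days and then plain water for 5 days, and middle colon RNA was taken on day 12. Each mouse gave 1 whole-transcript array, and no untreated colon was measured, so every value is from tissue recovering from colitis.

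Neutrophils make their granules in sequence while they mature in the bone marrow. Promyelocytes transcribe the genes of the azurophil granules, which carry myeloperoxidase and the serine proteases. Myelocytes and metamyelocytes then transcribe those of the specific granules, such as lactoferrin and cathelicidin, and transcription of both sets is largely shut off before the cell enters the blood. A neutrophil in inflamed tissue therefore carries granule proteins whose transcripts it has mostly lost, while receptors, calprotectin and stefins remain among its abundant transcripts.

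Values are RMA signals on the log2 scale, a summary of the probes of a probe set after background correction and normalization, so a difference of 1 is a doubling of signal. Trim58 itself read 4.91, 5.37, 4.82 and 5.11 in the KO arrays, against 5.22, 5.07, 5.18 and 5.03 in the WT arrays, and did not separate the genotypes (difference -0.07, limma adjusted p = 0.839), so it gives no check of the genotype labels. The sources used here do not say whether its probes lie in the deleted part. All 12 colon epithelium markers, Epcam and Muc2 among them, were measured. Their mean lay between 11.07 and 11.28 in the KO arrays, against 11.35 and 11.53 in the WT arrays. Of the differences between genotypes in this list, 10 were below 0 and 2 above. The largest were those of Aqp8, Car4 and Slc26a3, at -1.16, -0.84 and -0.62, while Epcam and Muc2 differed by -0.12 and -0.01. Pancreatic acinar genes were high in 3 KO arrays, as Cpb1, a carboxypeptidase, shows with 12.18, 12.65, 4.62 and 12.50 in KO replicates 1 to 4, against 4.53 to 4.68 in WT arrays. Their list mean was 10.29, 11.07 and 10.84 in KO replicates 1, 2 and 4, and 6.17 in KO replicate 3, against 6.25 to 6.36 in the WT arrays. Each result below is therefore also given for KO replicate 3 where that array bears on it. Apart from KO replicate 3 the acinar mean follows genotype. A fit with this mean as a covariate therefore cannot tell pancreatic signal and genotype apart, and a call lost in it is assigned to neither. The data are from bulk tissue, in which fewer cells of a type and less RNA per cell cannot be told apart.

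Of the 10 genes, 2 rose in the KO colon and 0 fell at a Benjamini-Hochberg adjusted limma p under 0.05 over all genes, where 0.577% of the 22180 genes were called, 0.392% higher and 0.185% lower. The 2 genes were Stfa2l1, a stefin of mature neutrophils, and Ngp, a protein of the later granules. No early granule gene passed. At an unadjusted limma p under 0.05, 3 of the 10 were higher (Stfa2l1, Ngp and Ltf) and 0 lower, where 6.22% of all genes were higher and 8.1% lower. In 3 of the 10 (Stfa2l1, Ngp and Ctsg) the genotypes did not overlap, as in 8.81% of all genes. The array mean of the 4 early granule genes was 5.28 ± 0.05 in KO colon and 5.27 ± 0.08 in WT colon (SD, n = 4 each). That of the 3 later granule genes was 5.23 ± 0.15 in KO colon and 4.89 ± 0.10 in WT colon. That of the 3 mature-cell genes was 9.07 ± 0.22 in KO colon and 8.23 ± 0.17 in WT colon. This gap came from Stfa2l1, since the differences of Cd177 and Ly6g were 0.02 and -0.36. The level of that mean was set by Cd177 and Ly6g, whose source in the colon was not tested, so it is no measure of mature neutrophils. Over the 10 genes the differences between genotypes ran from -0.36 to 2.85. The difference between one stage and another was not tested.

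**Figure D1:**
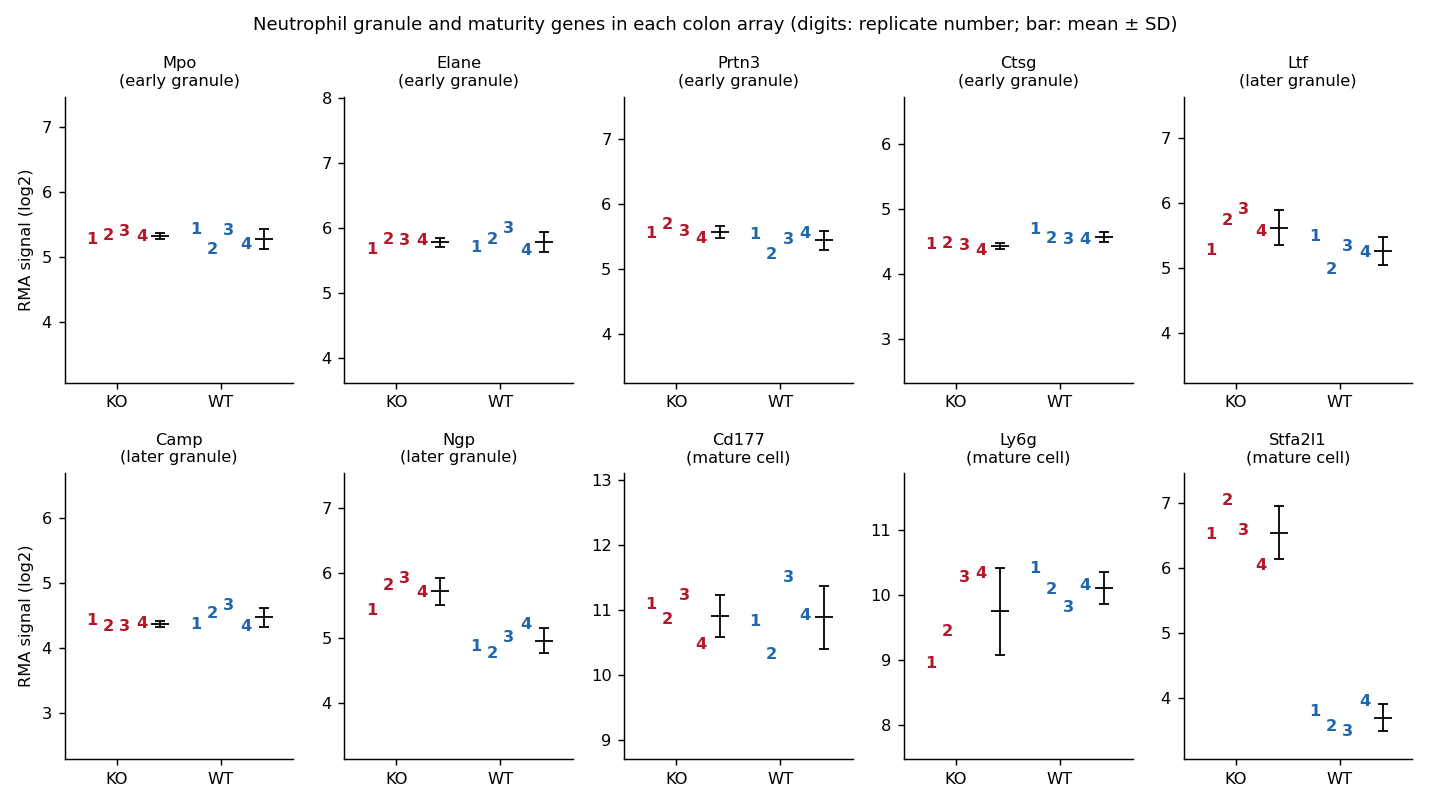
RMA signal (log2, y axis, the same span of log2 units in every panel) of each of the 10 genes in the 4 KO arrays (red) and the 4 WT arrays (blue). Each digit is an array with its replicate number, and the bar is the group mean ± SD. The KO digits of Stfa2l1 and Ngp lie above all WT digits, while the early granule genes lie at about one level in both genotypes.

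The early granule genes encode the contents of the azurophil granule. Mpo makes myeloperoxidase, which forms hypochlorous acid. Its signal was 5.28, 5.34, 5.39 and 5.31 in KO replicates 1 to 4, against 5.42, 5.12, 5.41 and 5.19 in WT replicates 1 to 4. The KO values lay inside the WT range, and the difference was 0.04 with a 95% interval of -0.15 to 0.24 (limma adjusted p = 0.878). Elane encodes neutrophil elastase, and read 5.68, 5.83, 5.81 and 5.81 in KO arrays, against 5.70, 5.82, 6.00 and 5.66 in WT arrays. Its genotypes overlapped too, with a difference of -0.01 (95% interval -0.21 to 0.19, limma adjusted p = 0.972). Prtn3, its neighbour on chromosome 10, encodes proteinase 3, a related serine protease. It read 5.54, 5.68, 5.57 and 5.47 in KO colon, against 5.52, 5.21, 5.45 and 5.55 in WT colon, with a difference of 0.13 (95% interval -0.08 to 0.34, limma adjusted p = 0.581).

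Ctsg, the gene of cathepsin G, is the one early granule gene whose genotypes did not overlap. It read 4.46, 4.48, 4.45 and 4.37 in KO arrays, against 4.69, 4.55, 4.53 and 4.53 in WT arrays. All 4 KO values lay below the lowest WT value, an arrangement that 5.02% of all genes showed in this direction, and the difference of -0.13 did not pass (95% interval -0.30 to 0.03, limma adjusted p = 0.454). Mast cells also make cathepsin G. Of 12 mast cell markers 1 was higher in KO colon and 0 were lower, and the list mean was 4.52 to 4.90 in KO arrays, against 4.36 to 4.77 in WT arrays. The one called was Hdc, the histamine-forming enzyme, which neutrophils also express, with a difference of 1.78 (limma adjusted p = 0.00459). The mast cell protease genes Cma1, Mcpt1, Mcpt2, Mcpt4, Tpsab1 and Tpsb2 did not pass. Their part in the signal of Ctsg was not tested.

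The 95% intervals of the 4 early granule genes reached at most 1.27-fold higher, for Prtn3, and 0.814-fold, for Ctsg. Olfactory receptor genes, a class hardly transcribed in colon, give a rough guide to the floor of the arrays, although levels cannot be compared strictly between probe sets. The KO means of Mpo, Elane, Prtn3 and Ctsg stood at the 94.1, 96.6, 95.1 and 79.0 percentiles of 1105 olfactory receptor genes, and the WT means at the 93.0, 96.4, 94.5 and 81.7 percentiles. RMA compresses differences near background, which limits what small changes in these transcripts could show.

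The promoters of the early granule genes are shown because all 4 share a sequence feature that was not used to choose the genes. The letters AGGAAGT hold GGAA, the core bound by the ETS family of transcription factors, which includes the myeloid factor PU.1. They occur in the 250 bases before the start of each of the 4 genes. They occur on either strand in 7.69% of the 32851 promoters of the RefSeq table, in 0 of the 3 later granule genes and in 1 of the 3 mature-cell genes, Ly6g. Counted per gene, 5 of 13 other azurophil and promyelocyte genes in the table, 5 of 17 other specific and gelatinase granule genes and 4 of 23 other mature neutrophil genes held it, beside 8.8% of all 27025 genes. The motif was picked after the sequences were seen, and a match is a description of letters, not of binding. The capitals mark the motif, which begins 223, 84, 94 and 206 bases before the start in Mpo, Elane, Prtn3 and Ctsg (RefSeq, GRCm38.p6, each printed 5′ to 3′ along its gene).
Mpo, chr11:87793535-87793593, plus strand: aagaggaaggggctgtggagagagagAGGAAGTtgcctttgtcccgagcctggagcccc
Elane, chr10:79886202-79886260, plus strand: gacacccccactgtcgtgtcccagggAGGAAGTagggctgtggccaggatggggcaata
Prtn3, chr10:79879547-79879605, plus strand: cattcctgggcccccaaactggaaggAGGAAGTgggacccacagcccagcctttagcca
Ctsg, chr14:56102748-56102806, minus strand: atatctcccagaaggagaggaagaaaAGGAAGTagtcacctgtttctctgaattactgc

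The list of other azurophil granule and promyelocyte genes gave a single call. Of 15 measured, 1 was higher in KO colon and 0 were lower, and the median difference was 0.11, beside -0.01 over all genes tested. The gene called was Igfbp4, a binding protein of insulin-like growth factors that stromal cells also secrete (difference 1.00, limma adjusted p = 0.0418). Its call ended without KO replicates 1, 2 or 4 or WT replicates 2, 3 or 4 in turn, where the difference lay between 0.886 and 1.099. It also ended with KO replicate 3 alone, at 0.64 (limma adjusted p = 0.843), and with the pancreatic acinar mean as a covariate, at 0.65 (limma adjusted p = 0.779). The azurophil granule protein gene Bpi had a difference of -0.16, and the promyelocyte genes Prss57 and Ms4a3 of -0.06 and 0.13 (limma adjusted p = 0.511, 0.826 and 0.601). At an unadjusted limma p under 0.05, 5 of the 15 were higher and 1 lower, where 6.22% of all genes were higher and 8.1% lower. Beside Igfbp4 the higher ones were Srgn, Ctsc, Lyz2 and Hk3, and the lower one was Serpinb1a. Srgn had a difference of 1.00 without overlap between the genotypes (limma adjusted p = 0.0805).

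Of the 3 later granule genes only Ngp passed. Ltf was higher at an unadjusted limma p under 0.05, and Camp, which read near background, did not separate the genotypes. Ngp encodes neutrophilic granule protein, a cystatin-like protein that mouse myelocytes make in large amounts. It read 5.43, 5.81, 5.92 and 5.70 in KO arrays, against 4.86, 4.76, 5.00 and 5.20 in WT arrays. The lowest KO value lay above the highest WT value, as for 3.79% of all genes in this direction. Ngp was 1.69-fold higher in KO colon (log2 difference 0.76 ± 0.13 SE, 95% interval 1.39-fold to 2.06-fold, limma adjusted p = 0.0314). KO replicate 3, the KO array without pancreatic signal, had the highest Ngp value of all 8. With that array as the one KO array the difference was 0.96 and the call was lost (limma adjusted p = 0.448), and with the pancreatic acinar mean as a covariate it was 0.92 (limma adjusted p = 0.44). The call did not survive the loss of an array in 5 cases of 8: the adjusted p was 0.118 without KO replicate 2, 0.0655 without KO replicate 4, and 0.0652, 0.123 and 0.0615 without WT replicates 1, 2 and 3. The difference itself stayed between 0.69 and 0.85 in the 8 fits without 1 array.

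Ltf encodes lactoferrin, the iron-binding protein of specific granules, which glandular epithelia also secrete. Its signal was 5.27, 5.73, 5.90 and 5.57 in KO arrays, against 5.49, 4.97, 5.33 and 5.23 in WT arrays. KO replicate 1 fell within the WT range and the other 3 KO arrays lay above it. The difference of 0.36 did not pass over all genes (95% interval 0.04 to 0.69, limma adjusted p = 0.291). Across the KO arrays Ltf and Ngp had one order, with replicate 3 highest, then replicates 2, 4 and 1.

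Camp encodes the cathelicidin precursor, whose peptide kills bacteria, and read 4.43, 4.33, 4.34 and 4.38 in KO arrays. In WT arrays it read 4.36, 4.54, 4.66 and 4.34. The genotypes overlapped, with a difference of -0.10 (95% interval -0.30 to 0.09, limma adjusted p = 0.663). Relative to the olfactory receptor genes, Ngp stood at the 96.1 percentile in KO colon and the 88.0 percentile in WT colon, Ltf at 95.6 and 92.9, and Camp at 77.8 and 80.2. Compression near background, as for the early granule genes, limits what a change in Camp could show.

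The promoters of Ltf and Ngp are shown because these 2 later granule genes hold a motif that Camp and the 4 early granule genes lack in the same window. TTGCNNAA is a form of the site of the C/EBP transcription factors, the family of C/EBP epsilon, which drives specific granule genes. It occurs on either strand in 9.56% of the 32851 promoters. Ltf holds 1 match, 75 bases before the start, and Ngp holds 2, at 138 and 11 bases. Among the mature-cell genes Ly6g holds a match, and neither Stfa2l1 nor Cd177 does. In the same order, 2 of 13, 6 of 17 and 4 of 23 genes of the other lists held it, beside 10.8% of all 27025 genes. No match of the 2 motifs overlaps another, and TTGCNNAA was also picked after the sequences were seen. The capitals mark the matches, and TTGGGCAA is the match read on the other strand.
Ltf, chr9:111019191-111019250, plus strand: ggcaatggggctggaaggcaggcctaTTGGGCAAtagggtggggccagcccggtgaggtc
Ngp, chr9:110419644-110419807, plus strand: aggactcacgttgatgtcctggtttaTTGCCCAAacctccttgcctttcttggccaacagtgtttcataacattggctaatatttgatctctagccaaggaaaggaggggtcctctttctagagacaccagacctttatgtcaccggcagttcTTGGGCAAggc

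The regulators of granule formation gave no call. Of 16 granulopoiesis regulators 0 were higher and 0 lower in the limma fit at the adjusted threshold, with a median difference of -0.02. Gfi1, a repressor needed for neutrophil differentiation, had a difference of -0.14 (limma adjusted p = 0.470). Cebpe, which encodes C/EBP epsilon, had 0.17 (limma adjusted p = 0.666). The smallest p was that of Cebpb, the C/EBP of emergency granulopoiesis, at a difference of 0.43 (limma adjusted p = 0.154). At an unadjusted p under 0.05 the genes past it were Cebpb, Runx1 and Irf8, higher in KO colon, and Kit, lower. Of all genes, 6.22% were higher and 8.1% lower at that threshold. Among 9 proliferation genes 0 passed the limma test, and 4 were higher at an unadjusted p under 0.05. Mki67, the Ki-67 gene of dividing cells, had a difference of 0.23 (limma adjusted p = 0.306) and Rrm2, a nucleotide reductase subunit, 0.46 (limma adjusted p = 0.0639). Which colon cells gave the signals of the regulators and of the proliferation genes was not tested.

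**Figure D2:**
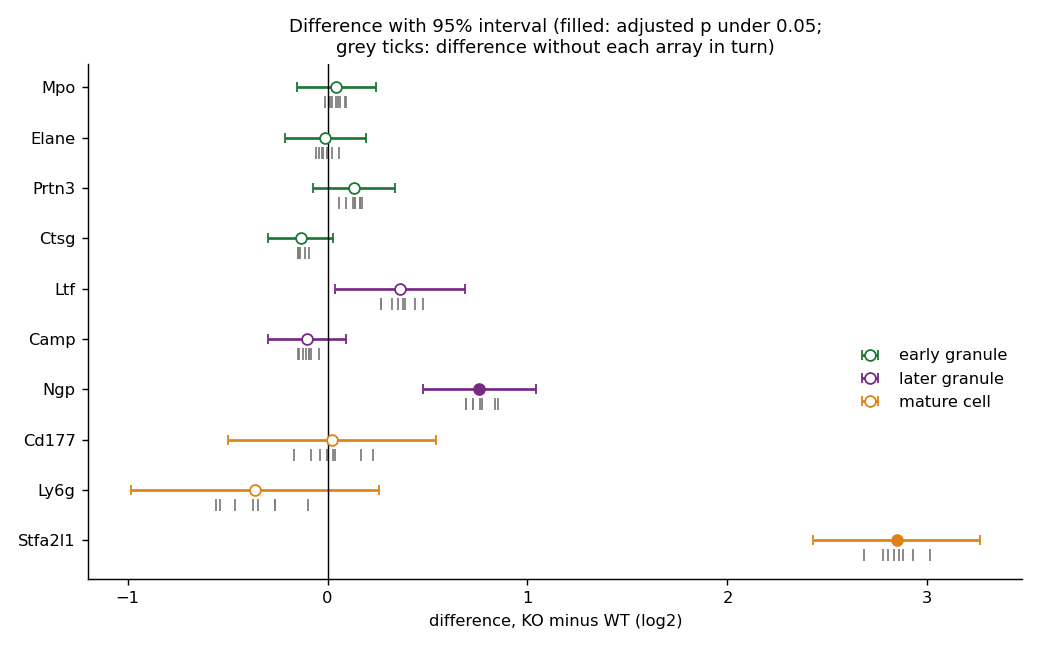
Difference KO minus WT (log2, x axis) of each of the 10 genes (y axis) with its 95% limma interval. Filled circles passed the adjusted threshold, open circles did not, and grey ticks give the difference without each array in turn. Stfa2l1 at 2.85 and Ngp at 0.76 are filled, and the ticks of Mpo, Elane and Cd177 lie on both sides of 0.

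The mature-cell genes differed among themselves. Stfa2l1 encodes a stefin A, an inhibitor of cysteine cathepsins. It read 6.52, 7.04, 6.59 and 6.04 in KO arrays, against 3.80, 3.57, 3.49 and 3.94 in WT arrays. The groups lay 2.097 log2 units apart at their nearest arrays. Stfa2l1 was 7.19-fold higher in KO colon (log2 difference 2.85 ± 0.19 SE, 95% interval 5.39-fold to 9.60-fold, limma adjusted p = 0.000269), and it passed in each of the 17 alternatives in which it was tested. With KO replicate 3 as the one KO array the difference was 2.89 (limma adjusted p = 0.0034). With the pancreatic acinar mean as a covariate it was 2.86 (limma adjusted p = 0.0399). Against the olfactory receptor genes, the KO mean stood at the 99.2 percentile and the WT mean at the 61.7 percentile, so the WT signal lay within the range of these hardly transcribed genes and the fold may be compressed.

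Cd177 encodes a surface glycoprotein that binds proteinase 3 on human neutrophils. It read 11.08, 10.85, 11.21 and 10.46 in KO arrays, against 10.81, 10.31, 11.50 and 10.90 in WT arrays. The signal was high in every array and the genotypes overlapped, with a difference of 0.02 (95% interval -0.50 to 0.54, limma adjusted p = 0.982). Its sign turned in 4 of the 8 fits without 1 array.

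Ly6g, whose protein is the antigen used to stain mouse neutrophils, read 8.95, 9.44, 10.27 and 10.33 in KO arrays. In WT arrays it read 10.41, 10.08, 9.81 and 10.15. KO replicates 1 and 2 lay below every WT array, and KO replicates 3 and 4 inside the WT range. The difference was -0.36 (95% interval -0.98 to 0.26, limma adjusted p = 0.621), and -0.10 without KO replicate 1. With KO replicate 3 alone it was 0.16. KO replicate 2, second lowest for Ly6g, had the highest Stfa2l1 value of all 8 arrays. Both Cd177 and Ly6g read above all 1105 olfactory receptor genes in both genotypes. Their WT means were 10.88 and 10.11, while those of the neutrophil genes S100a8 and S100a9 were 5.08 and 5.10. Whether the signal of Cd177 and Ly6g came from neutrophils or from other colon cells was not tested.

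The Ly6 family relatives of Ly6g, whose hybridisation to its probes was not tested, gave 0 calls in the limma fit among 13 measured. At an unadjusted p under 0.05, 1 was higher, where 6.22% of all genes were higher and 8.1% lower. The median difference was -0.000889. Ly6c1 and Ly6c2, markers of monocytes and endothelium, differed by 0.50 (limma adjusted p = 0.356) and by -0.000889 (limma adjusted p = 1.00). The smallest p was that of Ly6d at 0.76 (limma adjusted p = 0.193).

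Stfa2l1 lies in a cluster of stefin A genes on chromosome 16, and hybridisation of its relatives to its probes was not tested. Among 10 stefin and cystatin relatives measured, 0 passed the limma threshold, and the median difference was 0.10. At an unadjusted p under 0.05, 3 were higher, where 6.22% of all genes were higher and 8.1% lower. Stfa1 read 5.55, 5.06, 4.88 and 5.04 in KO arrays, against 4.45, 4.35, 4.61 and 4.27 in WT arrays. Its groups did not overlap, and the difference of 0.71 missed the threshold (limma adjusted p = 0.0599). Its highest array was KO replicate 1, whereas that of Stfa2l1 was KO replicate 2. Stfa2 read 3.60, 3.37, 3.31 and 3.61 in KO arrays, against 3.27, 3.47, 4.11 and 3.18 in WT arrays, with overlap (limma adjusted p = 0.960). Stfa3 had a difference of 0.49 (limma adjusted p = 0.171) and KO replicates 1 and 2 inside the WT range. Stfa2 stood at the 55.3 percentile of the olfactory receptor genes in KO colon and the 55.4 percentile in WT colon, and Stfa3 at the 52.8 and 38.0 percentiles. Neither signal stood above this floor in either genotype, so a difference at low levels of these transcripts could not be detected here.

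**Figure D3:**
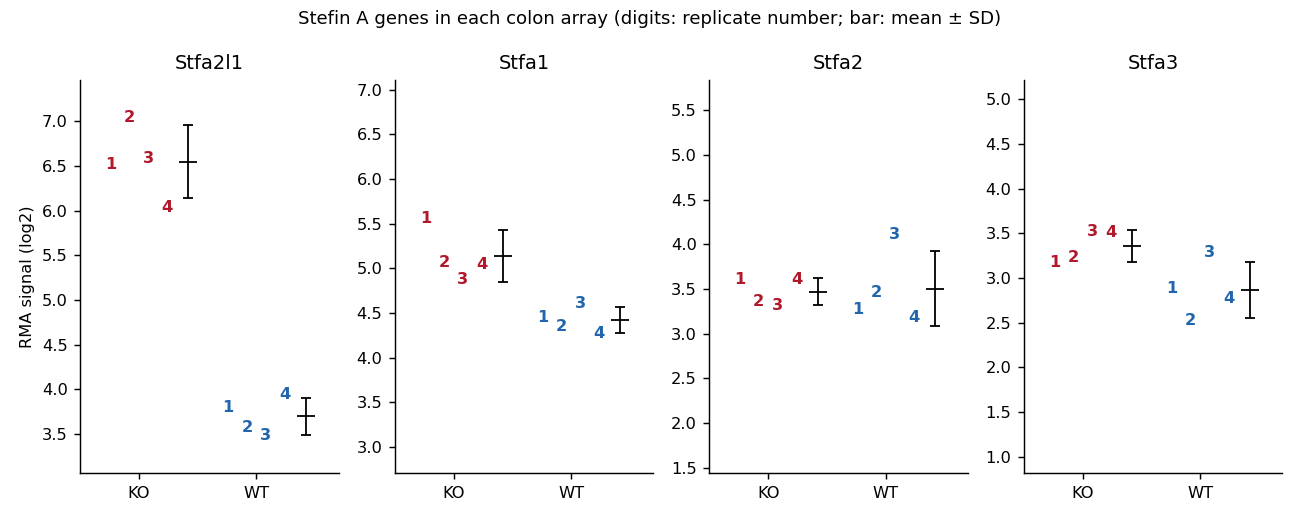
RMA signal (log2, y axis, the same span in every panel) of Stfa2l1 and 3 related stefin A genes in the KO arrays (red) and the WT arrays (blue). Digits are replicate numbers and bars are the mean ± SD. Stfa2l1 shows the widest gap between genotypes, Stfa1 a gap of under 1 log2 unit on average, and Stfa2 and Stfa3 lie at the level of hardly transcribed genes in both genotypes.

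The promoters of these 4 stefin genes are shown because the genes are close copies in one cluster. Over 150 bases before the start, the Stfa2l1 promoter was 86.4% identical to that of Stfa2, 79.9% to Stfa3 and 78.1% to Stfa1 in pairwise alignments, gaps counted as differences. The capitals mark the longest runs of letters that all 4 share, 2 runs of 13 bases each (RefSeq, GRCm38.p6, each printed 5′ to 3′ along its gene).
Stfa2l1, chr16:36156661-36156810, plus strand: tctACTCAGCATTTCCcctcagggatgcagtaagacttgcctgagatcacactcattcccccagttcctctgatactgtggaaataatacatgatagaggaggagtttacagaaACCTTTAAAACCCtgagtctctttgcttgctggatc
Stfa1, chr16:36276998-36277147, plus strand: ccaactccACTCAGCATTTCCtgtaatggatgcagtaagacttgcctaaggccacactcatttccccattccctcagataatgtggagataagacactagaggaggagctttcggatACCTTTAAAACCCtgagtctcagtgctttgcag
Stfa2, chr16:36408364-36408513, minus strand: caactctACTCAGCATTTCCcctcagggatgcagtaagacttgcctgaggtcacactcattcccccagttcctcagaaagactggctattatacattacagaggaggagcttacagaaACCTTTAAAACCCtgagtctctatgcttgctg
Stfa3, chr16:36455393-36455542, minus strand: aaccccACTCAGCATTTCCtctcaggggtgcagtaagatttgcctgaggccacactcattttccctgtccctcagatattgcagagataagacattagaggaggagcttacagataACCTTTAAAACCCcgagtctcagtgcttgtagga

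Other mature neutrophil genes were set beside the 10. Of 28 measured, 11 were higher in KO colon and 0 lower, with a median difference of 0.77, beside -0.01 over all genes tested. Of all genes, 0.392% were called higher and 0.185% lower. Csf3r, the receptor of granulocyte colony-stimulating factor, read 8.06, 8.53, 8.21 and 7.83 in KO arrays, against 6.96, 6.56, 6.41 and 6.89 in WT arrays (difference 1.45, limma adjusted p = 0.00622). The 4 with the smallest p were S100a9, S100a8, Il1b and Cxcr2. Across them the log2 gap ran from 2.25 to 3.38 and the limma adjusted p from 0.000233 to 0.00424. Retnlg, a resistin-like gene of neutrophils, had a difference of 2.83 (limma adjusted p = 0.0186). Several of the 11, such as Il1b, Clec4e and Ccr1, are also transcribed by monocytes and macrophages. The count was 6 without WT replicate 2 and 6 with KO replicate 3 alone, and was 1 with the pancreatic acinar mean as a covariate. In that covariate fit 15 of the 28 were higher and 0 lower at an unadjusted limma p under 0.05. The share of all genes past that threshold in the covariate fit is not given here.

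Genes of the specific and gelatinase granules other than Ltf, Camp and Ngp included 6 higher in KO colon and 0 lower among 20 measured. Their median difference was 0.49, with 17 differences above 0 and 3 below, and 0.392% of all genes were called higher and 0.185% lower. Mmp8, the neutrophil collagenase of specific granules, read 7.04, 7.78, 7.07 and 6.48 in KO arrays. In WT arrays it read 4.89, 4.57, 5.06 and 5.07. The gap was 1.405 log2 units at the nearest arrays, and Mmp8 was 4.57-fold higher (limma adjusted p = 0.00459). Mmp9, the gelatinase of the last granules to form, was 2.41-fold higher (limma adjusted p = 0.0186). Chil3 and Lcn2, which macrophages and epithelium also make, also rose, 6.34-fold for Chil3 (limma adjusted p = 0.00424) and 5.35-fold for Lcn2 (limma adjusted p = 0.00622). The remaining calls were Hp, 5.39-fold higher (limma adjusted p = 0.0271), and Itgam, 2.14-fold higher (limma adjusted p = 0.0310). The WT means of Chil3 and Mmp8 stood at the 72.4 and 87.3 percentiles of the olfactory receptor genes, so these folds may be compressed. The count was 3 without KO replicate 2 or without WT replicate 2, 1 with KO replicate 3 alone and 0 with the pancreatic covariate. In that last limma fit 8 of the 20 were higher at an unadjusted p under 0.05, and the share of all genes there is not given here.

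**Figure D4:**
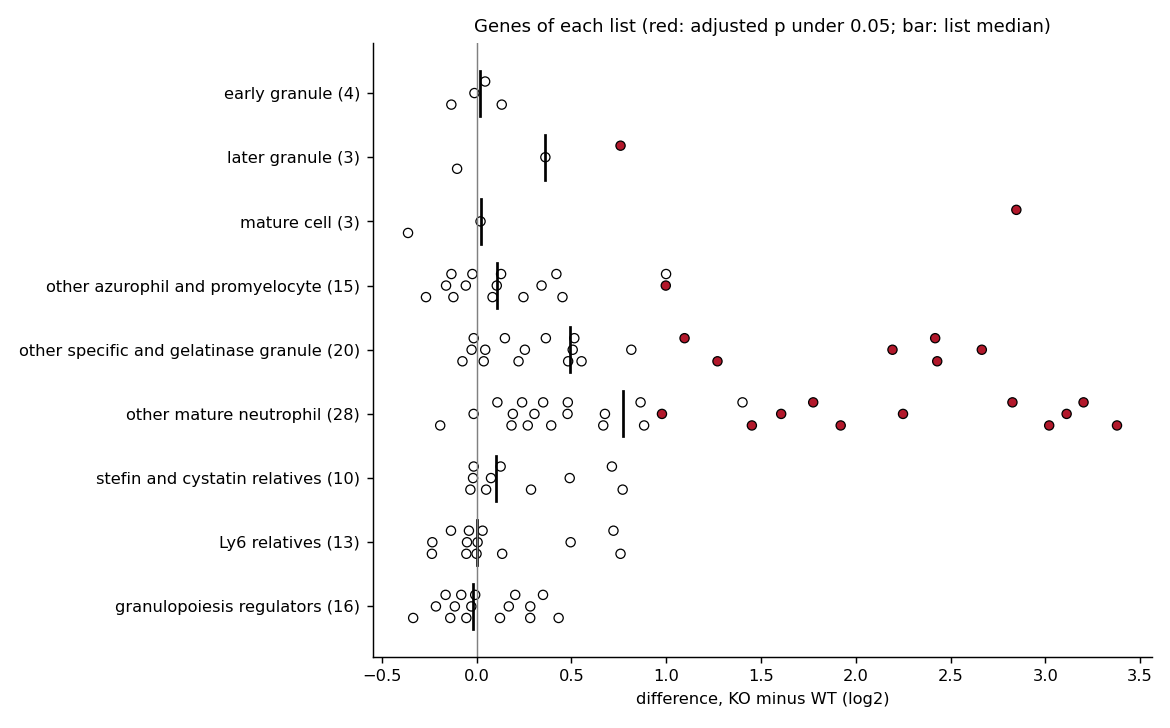
Difference KO minus WT (log2, x axis) of every measured gene in the 3 stage groups and in 6 related lists (y axis, number of genes in brackets). Red points passed the adjusted threshold and bars are list medians. Red points lie to the right of 0 only, 11 of them among the other mature neutrophil genes and none among the early granule genes.

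Within the KO group the mean of the other mature neutrophil genes was highest in replicates 2 and 3. Relative to the WT mean it was 0.92, 1.57, 1.28 and 0.91 in KO replicates 1 to 4. The mean of the 15 monocyte and macrophage genes was 0.07, 0.40, 0.32 and 0.27, also highest in KO replicates 2 and 3. The early granule mean was -0.03, 0.06, 0.03 and -0.03 in the same arrays. The later granule mean was 0.15, 0.40, 0.49 and 0.32. KO replicate 1 therefore had the smallest later granule shift, and the early granule shift was under 0.10 in all 8 arrays.

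Markers of other cells that could add to these signals were read in the same arrays. At an unadjusted limma p under 0.05, 6.22% of all genes were higher and 8.1% lower. Of 15 monocyte and macrophage genes 0 passed the limma threshold and 4 were higher at an unadjusted p under 0.05, with a list mean of 7.56 to 7.89 in KO arrays, against 7.05 to 7.85 in WT arrays. Of the 15 pancreatic genes 0 passed, and 12 were higher and 1 lower at an unadjusted p. Ctrc, a chymotrypsin, had the smallest p (difference 1.01, limma adjusted p = 0.0812). Among monocyte and macrophage genes the smallest p was that of Marco, a scavenger receptor, at a difference of 0.38 (limma adjusted p = 0.139). Of 8 eosinophil genes 0 passed and 1 was higher at an unadjusted p, with a mean of 4.96 to 5.07 in KO arrays, against 4.82 to 4.99 in WT arrays, and the smallest p was that of Il5ra at 0.73 (limma adjusted p = 0.139). Of 5 erythroid genes 0 passed and 1 was higher at an unadjusted p, with a mean of 5.16 to 5.28 in KO arrays, against 5.06 to 5.17 in WT arrays, and Rhd had the smallest p (difference 0.34, limma adjusted p = 0.149). Of the 12 colon epithelium genes 1 was lower in KO colon, the carbonic anhydrase gene Car4 (difference -0.84, limma adjusted p = 0.0401). At an unadjusted limma p under 0.05, 0 were higher and 3 lower, Car4, Aqp8 and Slc26a3. Aqp8 had a difference of -1.16 and Slc26a3 of -0.62 (limma adjusted p = 0.0543 and 0.112). The part of these cells in the members' signals was not tested.

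**Figure D5:**
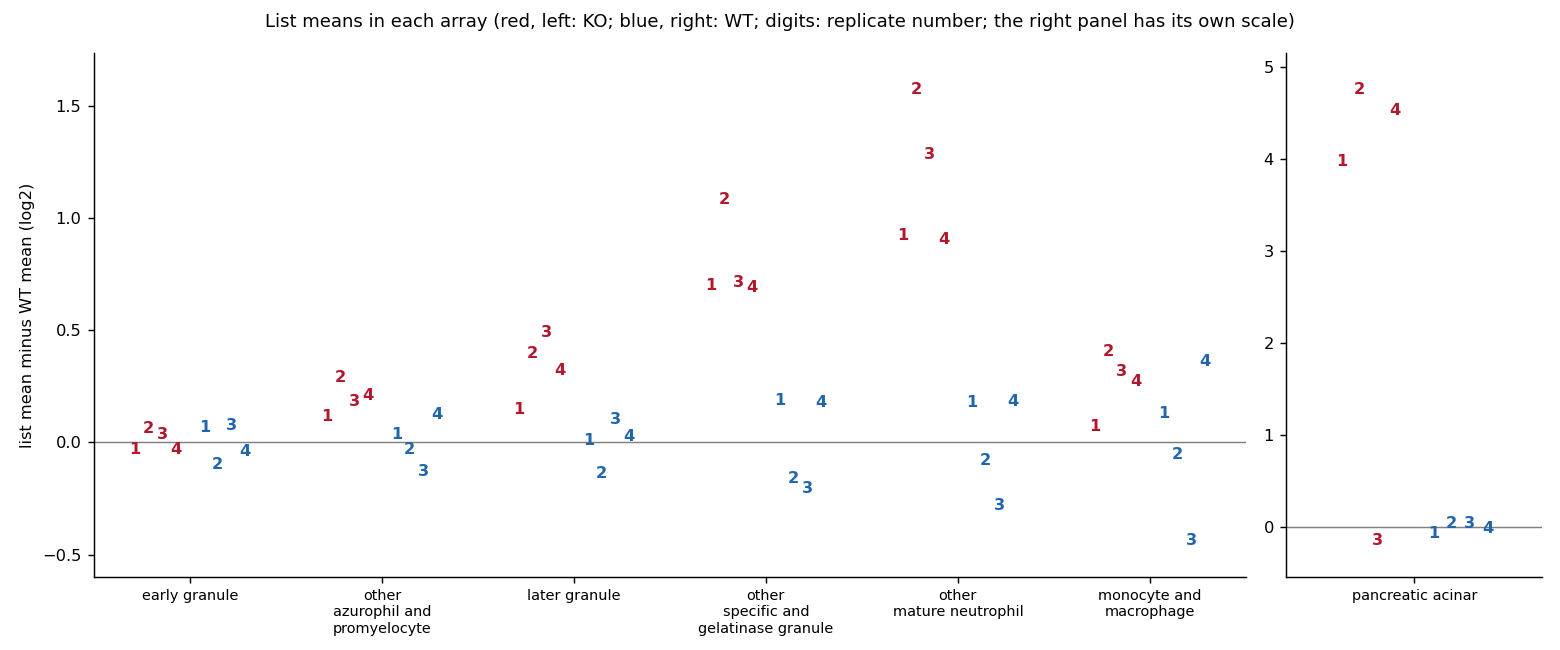
Mean of each gene list in each array minus its WT mean (log2, y axis) for the KO arrays (red, left) and the WT arrays (blue, right), with replicate numbers as digits. The right panel has its own scale and shows the pancreatic acinar genes, where KO replicate 3 lies with the WT arrays. The early granule shifts stay under 0.10, while the other mature neutrophil shifts of the KO arrays lie between 0.91 and 1.57.

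The genes with the most similar pattern to 4 of the members were listed by Pearson's r over the 8 arrays, as a description that carries the genotype difference with it. The 3 nearest to Stfa2l1 were S100a8, S100a9 and Csf3r, with r of 0.995, 0.994 and 0.988, and all 3 were called higher in KO colon. The nearest to Ngp were A230028O05Rik, Smox and Cdk17 (r of 0.975, 0.973 and 0.971), and to Mpo Ptk6, Rnf128 and Slc5a11 (0.971, 0.967 and 0.962). Those of Ly6g were Pex16, Necap1 and Fam243 (0.959, 0.954 and 0.952). None of the genes nearest to Ngp, Mpo and Ly6g passed the limma test, and no granule or mature neutrophil gene of the lists was among them.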

How the data were processed

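RNA of the middle colon of 4 KO and 4 WT mice was hybridised to 1 array per mouse after amplification from 200 ng, per the labels' protocols. The authors deposited log2 values made with RMA in Affymetrix Expression Console 1.4, per the submitters' processing notes. Filters, batches and scan dates: not given in the sources used here. Scanner files were not analysed. Each array is a separate mouse, so p-values measure the spread between mice. The array number limits the precision.

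Of 41345 probe sets, 23521 carried 1 gene symbol in the platform annotation, 1814 several and 16010 none. Per gene the probe set brightest on average was kept, leaving 22180 genes with no filter on dim ones. By Entrez identifier, 23328 of the single-symbol probe sets were in RefSeq (GRCm38.p6), and 188 of 213 list entries were tested.

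The test was limma (lmFit, then eBayes; version 3.58.1, R 4.3.3) with genotype as the one term and Benjamini-Hochberg adjustment across genes. A fold is 2 to the power of the log2 difference. Stage means were described without a test. The fit was tested on simulated data with 200 changed genes. The members and lists were chosen with earlier results of these data known. Named genes are the members, Trim58, a set given always (Gfi1, Cebpe, Mmp8, Mmp9, Lcn2, Chil3, Cxcr2, Csf3r, Retnlg, S100a8, S100a9, Stfa1, Stfa2, Stfa3, Ly6c1, Ly6c2, Mki67 and Cpb1), up to 4 called genes with the smallest p per list or, where none was called, the gene with the smallest p, and the 3 nearest genes of Mpo, Ngp, Ly6g and Stfa2l1. Epcam, Muc2, Bpi, Prss57, Ms4a3, Runx1, Irf8, Kit, Clec4e, Ccr1 and the mast cell proteases were named after their values were seen. So were Srgn, Ctsc, Lyz2, Hk3, Serpinb1a, Aqp8, Slc26a3, Hp and Itgam. Alternatives changed the variance model, weights, normalization, dim genes, probe sets, block, arrays and a pancreatic covariate.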

Additional observations from a re-analysis of the deposited data

Results flagged for a closer look

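The group of 4 arrays was checked for a lone array in 26 cases, the 10 genes and 3 stage means in each genotype, and chance alone would flag about 1 group in 20. In 2 cases an array stood apart. Elane read 5.68 in KO replicate 1, below the other 3 KO arrays, which lay between 5.81 and 5.83, and its difference was 0.02 without that array. Ctsg read 4.69 in WT replicate 1, above the other 3 WT arrays, which lay between 4.53 and 4.55, and its difference was -0.09 without that array (limma adjusted p = 0.634).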

How the results depend on the processing

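Stfa2l1 kept its direction and its call in the 17 alternatives that tested it, with differences of 2.68 to 3.02 and limma adjusted p up to 0.0399. Ngp kept its direction in 17 and its call in 9, with limma adjusted p from 0.0168 to 0.448. Both were among the 5 genes below the level kept without the dimmest 33.3% of genes, where 0 of the 5 others were called and the stage means could not be computed. The number of the 10 genes called was 1 to 2 without each array in turn, and 1 with the replicate block, with the pancreatic covariate and with KO replicate 3 alone, where the lone KO array is assumed to vary like the WT arrays. Over all genes the 128 calls were 199 with array weights, 203 without the dimmest 33.3%, 64 with the replicate block, 2 with the pancreatic covariate, 14 with KO replicate 3 alone and 25 to 252 without each array in turn. With the covariate, which nearly follows genotype, the standard error rose from 0.127 to 0.193 for Ngp and from 0.187 to 0.3 for Stfa2l1. Fewer calls there do not by themselves mean smaller differences. The later granule mean was 0.49 with KO replicate 3 alone, against 0.34 with all arrays. The mature-cell mean was 1.12 with KO replicate 3 alone and 1.09 with the covariate, against 0.83 with all arrays. The early granule mean, 0.01 with all arrays, lay between -0.02 and 0.03 in all fits.

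Signs turned for genes near 0. Without each array in turn Mpo ran from -0.0114 (without WT replicate 2) to 0.0910, Elane from -0.0585 to 0.0561 (above 0 without KO replicate 1 or WT replicate 3) and Cd177 from -0.170 to 0.225 (below 0 without KO replicate 1 or 3 or WT replicate 1 or 2). Elane was 0.0166 with KO replicate 3 alone. Ly6g was 0.0681 with the covariate and 0.158 with KO replicate 3 alone. The cause was not tested. Same-numbered KO and WT arrays did not deviate together (correlations of -0.14, -0.16, 0.04 and 0.05), so the replicate block, with an adjusted p of 0.0628 for Ngp and 0.0587 for Igfbp4, pairs arrays by number only. The counts of the lists under each alternative were added after the data were seen.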
